A study of Homo sapiens with 18 samples.

Results

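The mRNAs described here are POMK, TMTC1, LRRC8B, SVBP, EI24, TAX1BP3 and PLAGL2. They are 7 of the 14232 genes that had a transcript cluster, the array's unit for a gene, with exactly 1 gene symbol, and each of the 7 had a single such cluster among the 22011 on the array. They were chosen on these arrays, because their signal in the G3BP1 immunoprecipitate was higher after arsenite relative to that in input RNA or in the TIAR immunoprecipitate, with and without 2 arrays that stood apart. The arsenite changes of the G3BP1 immunoprecipitate are therefore a description of how the 7 were picked and are given with no test.

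The data came from U251-MG, an established human astrocytoma cell line, treated with 500 µM arsenite or with the solvent DMSO for 30 minutes. RNA immunoprecipitation (RIP) pulls down a protein with an antibody and measures the RNA that comes with it. From arsenite-treated and from control cells, input RNA, RNA pulled down with an antibody to TIAR (the product of TIAL1) and RNA pulled down with an antibody to G3BP1 were each measured on exon arrays. This gave 6 groups of 3 biological replicates and 18 arrays in all. A pulldown with a nonspecific antibody was not analysed here, all groups come from the same cell line, and each value is a log2 signal relative to the rest of the RNA on its own array. A smaller share of an mRNA in a sample and a larger share of other RNAs, or fewer cells with the mRNA and less of it per cell, cannot be told apart in such values.

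Arsenite is an oxidative stressor that halts the initiation of translation, and mRNAs released from ribosomes gather with RNA-binding proteins in cytoplasmic stress granules. G3BP1 is a scaffold whose binding to RNA drives the assembly of these granules, and TIAR is an RNA-binding protein that favours uridine-rich stretches, silences translation and also enters them. Which mRNAs each protein holds before and during stress is the question that the pulldowns and inputs address.

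Of 12 astrocyte and glioma marker genes on the array, 7 lay above the median of the mean control input signals (7.94 on the log2 scale). Vimentin (VIM) had a log2 signal of 12.9 and CD44 of 11.7, while the glial filament gene GFAP stood at 8.45. The mature astrocyte genes AQP4 (4.78) and S100B (5.20) lay below that median. Above it were also 3 of 8 neuronal, 0 of 5 oligodendrocyte, 1 of 7 myeloid, 4 of 6 epithelial and 0 of 2 erythroid markers. Signals of different genes come from different probes, so these are positions on the array and not relative amounts.

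In control cells all 7 mRNAs had a lower signal in the G3BP1 RIP than in input, on every array of one group against every array of the other. After arsenite the G3BP1 RIP signal was higher by 0.77 to 1.19 on the log2 scale and the input signal was lower for all 7. The difference between those changes, called the gain over input below, was 1.41 to 2.07, or 2.66-fold to 4.21-fold. The median over the 7 mRNAs was 1.07 for the arsenite change of the G3BP1 RIP and 1.99 for the gain over input, where the medians over all 22011 clusters were 0.01 and 0.05.

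Over all clusters the limma fit called 10.4% higher and 4.08% lower with arsenite in the G3BP1 RIP, at a Benjamini-Hochberg adjusted p under 0.05. It called 2.52% higher and 11.2% lower in input. A gain over input was called for 14.3% of clusters and a loss for 2.65%, and against the TIAR RIP a gain was called for 8.55% and a loss for 5.05%. In the TIAR RIP itself 6.15% were called higher and 5.71% lower.

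Without the 2 arrays that stood apart (described next), this background turned. In the G3BP1 RIP 11.1% of clusters were then called higher and 13.7% lower, and in input 7.07% higher and 13.4% lower. Gains over input were called for 13.1% and losses for 9.79%, and against the TIAR RIP gains for 11.3% and losses for 13.4%. For the G3BP1 change and the gain over TIAR, the excess of higher over lower calls was absent without the third control G3BP1 array. Without it alone, 1835 clusters were called higher and 2105 lower in the G3BP1 change, and 1841 and 2194 in the gain over TIAR. Under cyclic loess, another scaling, with all arrays kept, the counts were 2630 and 1853, and 2072 and 2044. The parts of scaling and of that array were not tested apart. The first arsenite input array enters neither of these comparisons, so leaving it out alone changed only the estimated spread. The counts were then 2650 against 1189, and 2267 against 1435. In the gain over input, which uses that array, 2578 clusters were called higher and 935 lower without it, and 3137 and 584 with all arrays.

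Arrays stood apart in 2 groups, and both bear on these mRNAs. The third control G3BP1 RIP array differed from the mean of its group's other arrays by -0.37 (LRRC8B) to -1.65 (TAX1BP3), with a median difference over the 7 mRNAs of -0.999 against -0.18 over all clusters. The first arsenite input array lay lower than the rest of its group for each of the 7, with a median difference of -0.56 against -0.14 over all clusters. Each low array makes a gain larger. Without both arrays, the median over the 7 mRNAs was 0.70 for the change in the G3BP1 RIP, 1.42 for the gain over input and 1.38 for the gain over TIAR, which was 1.76 with all arrays. The part of these arrays in the results was not tested beyond leaving them out, and both gains of each mRNA are given both ways.

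**Figure D1:**
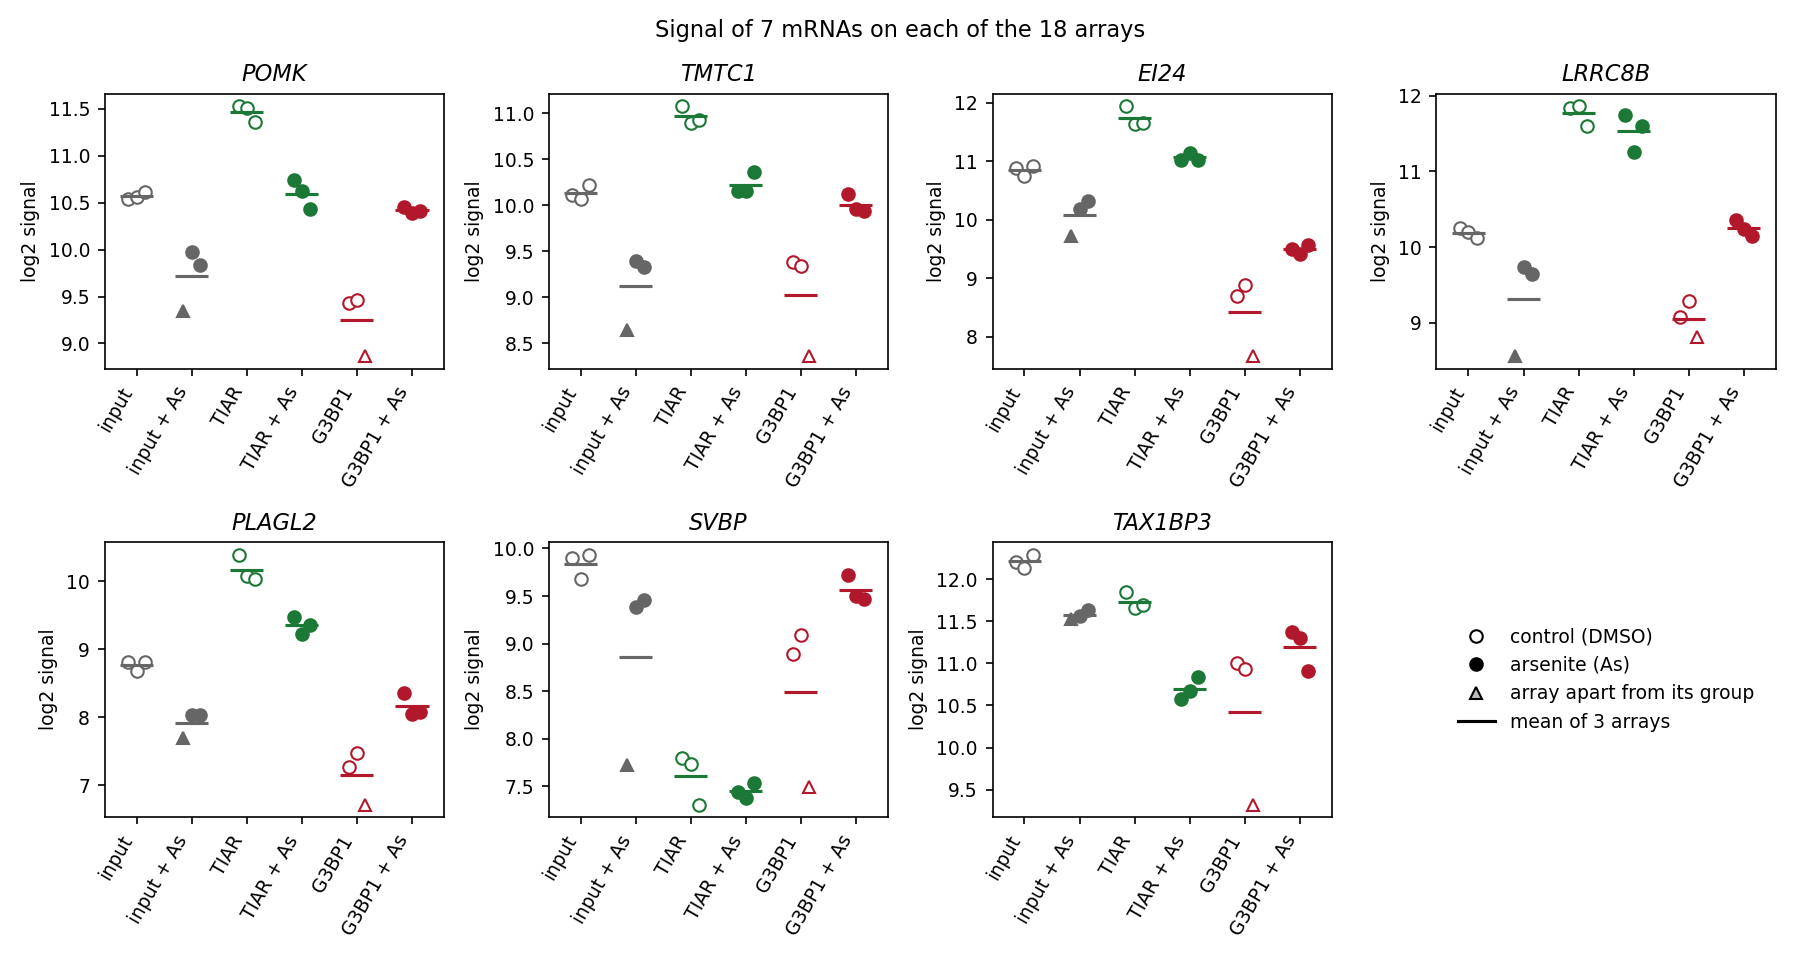
Log2 signal of each of the 7 mRNAs (1 panel per mRNA, each with its own vertical scale) on all 18 arrays, for input, TIAR RIP and G3BP1 RIP from control (open) and arsenite-treated (filled, + As) cells; lines are means of 3 arrays and triangles are the 2 arrays that stood apart. For 6 mRNAs all filled G3BP1 points lie above all open ones, for TAX1BP3 they overlap, and SVBP has its lowest group means in the TIAR RIP.

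POMK is a kinase that phosphorylates mannose in the O-linked sugar chain of dystroglycan, a step needed for the chain that binds laminin. Its log2 signal in the G3BP1 RIP was 9.43, 9.46 and 8.86 in control cells and 10.45, 10.39 and 10.41 after arsenite. In input it was 10.54, 10.56 and 10.61 in control cells and 9.34, 9.98 and 9.84 after arsenite. In the TIAR RIP it was 11.53, 11.51 and 11.36 in control cells and 10.74, 10.62 and 10.43 after arsenite. The groups with and without arsenite did not overlap in any of the 3 kinds of RNA, and the G3BP1 RIP alone moved upward. The gain over input was 2.02 ± 0.23 (SE, limma, 3 arrays per group), and 1.64 without both arrays. The gain over TIAR, 2.04 ± 0.23, was the highest of the 14232 genes, and without both arrays it was 1.84.

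TMTC1 encodes a membrane protein of the endoplasmic reticulum from the family that transfers O-linked mannose to cadherins. In the G3BP1 RIP its log2 signal was 9.38, 9.34 and 8.36 in control cells and 10.12, 9.96 and 9.94 after arsenite. Input values were 10.11, 10.07 and 10.23 in control cells and 8.65, 9.40 and 9.33 after arsenite. In the TIAR RIP the values were 11.08, 10.90 and 10.93, then 10.16, 10.15 and 10.36. As for POMK, arsenite arrays were all higher in the G3BP1 RIP and all lower in input and the TIAR RIP. Its gain over input was 1.99 ± 0.32 (1.42 without both arrays) and the gain over TIAR was 1.73 ± 0.32 (1.39 without both arrays).

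LRRC8B is a subunit of the volume-regulated anion channels, through which cells release chloride and small organic molecules when they swell. The G3BP1 RIP signal (log2) was 9.07, 9.28 and 8.81 in control cells and 10.35, 10.24 and 10.15 after arsenite. Its input signal was 10.25, 10.20 and 10.12 in control cells and 8.55, 9.73 and 9.64 after arsenite. TIAR RIP values were 11.84, 11.87 and 11.61 in control cells and 11.75, 11.26 and 11.60 after arsenite. The arsenite and control arrays did not overlap in the G3BP1 RIP or in input, but they did in the TIAR RIP, where the difference was -0.23 ± 0.24. The gain over input, 2.07 ± 0.34, was the largest of the 7 mRNAs with all arrays and 1.57 without both. The gain over TIAR was 1.43 ± 0.34 (1.30 without both arrays).

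SVBP encodes the small partner protein that vasohibins need to cut the terminal tyrosine from alpha-tubulin. On the log2 scale, the G3BP1 RIP held it at 8.89, 9.09 and 7.49 in control cells and 9.72, 9.50 and 9.46 after arsenite. The input arrays gave 9.90, 9.67 and 9.94 in control cells and 7.73, 9.38 and 9.46 after arsenite. The TIAR RIP arrays gave 7.80, 7.73 and 7.31 in control cells and 7.44, 7.37 and 7.53 after arsenite. In the G3BP1 RIP and in input the lowest array was one of the 2 that stood apart, and the TIAR RIP arrays overlapped between treatments. Its gain over input was 2.05 ± 0.58 with all arrays and 0.99 without both. The gain over TIAR was 1.24 ± 0.58 with all arrays and 0.74 without both, or without the third control G3BP1 array alone.

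EI24 encodes a membrane protein of the endoplasmic reticulum that is induced by p53 and takes part in autophagy. The log2 values in the G3BP1 RIP were 8.70, 8.89 and 7.67 in control cells and 9.50, 9.42 and 9.56 after arsenite. Those in input were 10.89, 10.75 and 10.92 in control cells and 9.72, 10.19 and 10.32 after arsenite. Those in the TIAR RIP were 11.95, 11.64 and 11.65 in control cells and 11.02, 11.15 and 11.03 after arsenite. No 2 of these 6 groups overlapped, and the arsenite G3BP1 arrays remained below every input array. Its gain over input was 1.85 ± 0.33 (1.30 without both arrays) and the gain over TIAR was 1.76 ± 0.33 (1.38 without both arrays).

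TAX1BP3 encodes a small protein made up largely of one PDZ domain, which binds the tails of partner proteins such as beta-catenin. G3BP1 RIP signals, on the log2 scale, were 11.00, 10.94 and 9.32 in control cells and 11.37, 11.30 and 10.91 after arsenite. Input signals were 12.20, 12.14 and 12.29 in control cells and 11.53, 11.56 and 11.63 after arsenite. TIAR RIP signals were 11.85, 11.65 and 11.69 in control cells and 10.57, 10.67 and 10.84 after arsenite. This was the mRNA whose G3BP1 arrays overlapped between treatments. Its arsenite change in the G3BP1 RIP was 0.77 ± 0.31 and became 0.23 without both arrays, a value that leaving out the third control G3BP1 array alone also gives. The gain over input was 1.41 ± 0.43 (0.84 without both arrays), and the gain over TIAR was 1.81 ± 0.43 (1.26 without both arrays), where the arsenite change in the TIAR RIP was -1.04.

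PLAGL2 is a zinc-finger transcription factor of the PLAG family. Log2 signals in the G3BP1 RIP were 7.27, 7.47 and 6.72 in control cells and 8.36, 8.05 and 8.07 after arsenite. Input RNA gave 8.82, 8.68 and 8.81 in control cells and 7.69, 8.04 and 8.03 after arsenite. The TIAR RIP gave 10.39, 10.07 and 10.03 in control cells and 9.47, 9.22 and 9.36 after arsenite. No 2 of the 6 groups overlapped here either, and the arsenite G3BP1 arrays lay just above the arsenite input arrays. Its gain over input was 1.86 ± 0.24 (1.52 without both arrays) and the gain over TIAR was 1.82 ± 0.24 (1.60 without both arrays).

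**Figure D2:**
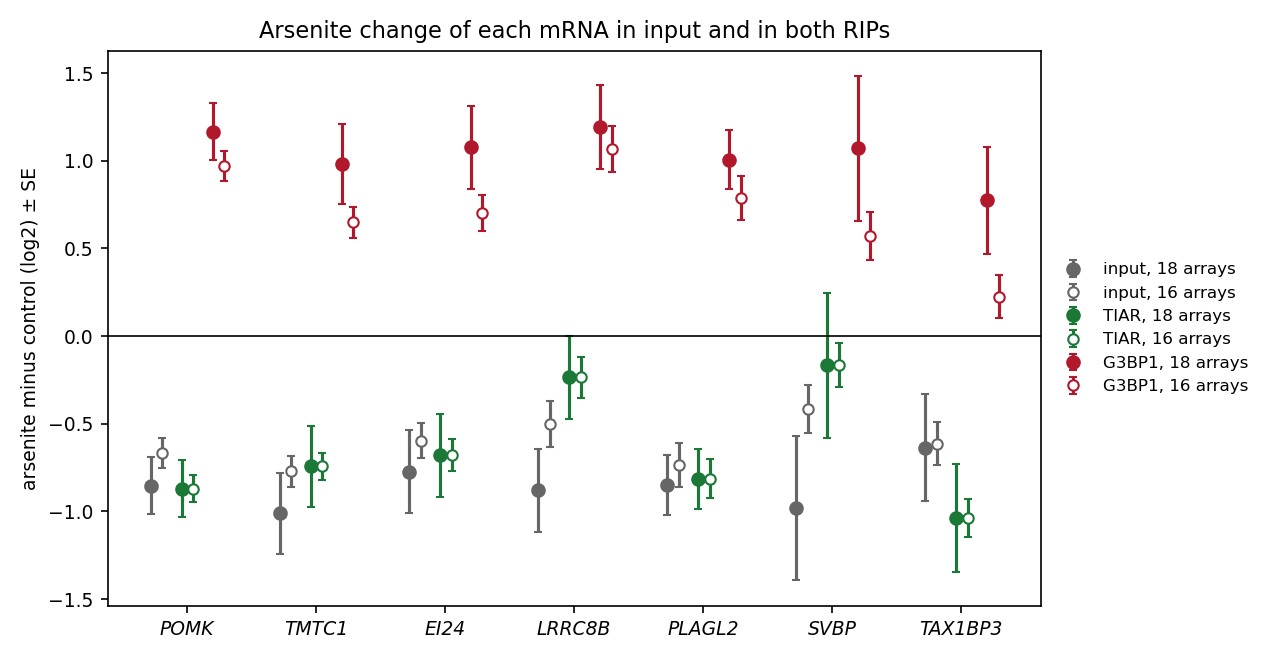
Arsenite minus control difference in log2 signal (vertical axis) of the 7 mRNAs in input (grey), the TIAR RIP (green) and the G3BP1 RIP (red), as limma estimates with standard errors from all 18 arrays (filled) and from the 16 arrays without the 2 that stood apart (open). G3BP1 differences lie between 0.77 and 1.19 with all arrays and between 0.23 (TAX1BP3) and 1.07 (LRRC8B) without both, while all input and TIAR differences lie below 0.

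The gain over input of each mRNA is the sum of a higher G3BP1 signal and a lower input signal. With all arrays the change in the G3BP1 RIP made up 49.3% (TMTC1) to 58.2% (EI24) of it. Without both arrays this share was 68.1% for LRRC8B and 26.9% for TAX1BP3, where it had been 57.6% and 54.9%. The arsenite change in input ran from -0.64 (TAX1BP3) to -1.01 (TMTC1) with all arrays. Without both it ran from -0.42 (SVBP, -0.98 with all arrays) to -0.77 (TMTC1), and LRRC8B stood at -0.50 in place of -0.88. The change in the G3BP1 RIP became 0.57 in place of 1.07 for SVBP and 0.65 in place of 0.98 for TMTC1.

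Counted by arrays, 6 of the 7 mRNAs (all but TAX1BP3) had every arsenite G3BP1 array above every control one, as did 18.2% of all clusters. All 7 had every arsenite input array below every control one (25.3% of all clusters), and 5, all but LRRC8B and SVBP, had this in the TIAR RIP (16.1%). The same 6 mRNAs combined the higher G3BP1 and the lower input arrays (7.89%). POMK, TMTC1, PLAGL2 and EI24 showed lower TIAR arrays as well (3.73%). These percentages stand beside counts that the choice of the mRNAs fixed in part, so nothing is read from the excess.

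The 7 mRNAs also lay in the upper part of the signal range, with mean signals above those of 60.5% (PLAGL2) to 91.5% (TAX1BP3) of all clusters. The median gain over input was 0.24 over the brighter 50% of clusters and -0.06 over the dimmer 50%. Brighter clusters thus had the higher median gain, and the part of signal level in these gains was not tested.

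How much of each mRNA the G3BP1 RIP held relative to input divided the set. In control cells, the G3BP1 RIP lay below input, with differences of -1.11 (TMTC1) to -2.43 (EI24) and no overlap between arrays for any of the 7 (23.7% of all clusters). Without the 2 arrays these differences ran from -0.78 (TMTC1) to -2.06 (EI24), and SVBP stood at -0.85 in place of -1.35. After arsenite it lay above input, again with no overlap, for LRRC8B (0.94), TMTC1 (0.88), SVBP (0.71), POMK (0.70) and PLAGL2 (0.24); 33.7% of all clusters did so. EI24 (-0.58) and TAX1BP3 (-0.38) stayed below input on every array, as did 19.4% of clusters. For these 2 mRNAs the arsenite G3BP1 RIP still held a smaller share than the whole-cell RNA. Without both arrays SVBP stood 0.14 above input and PLAGL2 0.12, while LRRC8B (0.56), TMTC1 (0.64) and POMK (0.51) kept more of the difference.

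**Figure D3:**
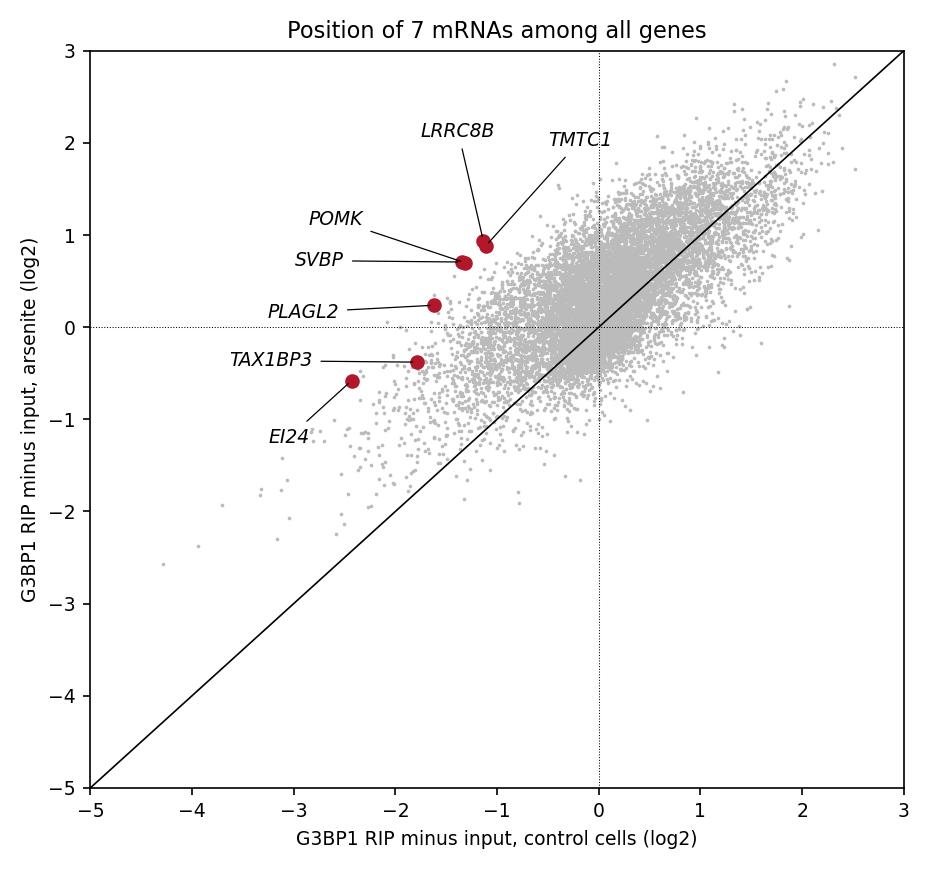
Log2 signal of the G3BP1 RIP minus that of input in control cells (horizontal axis) and after arsenite (vertical axis), as means of 3 arrays per group, for the 7 mRNAs (red) and every other gene with a transcript cluster of its own (grey); the diagonal marks no change of the difference. All 7 lie left of 0 and above the diagonal, 5 of them above 0 after arsenite and EI24 and TAX1BP3 below it.

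Among the 14232 genes, gain over input ranked LRRC8B in place 2, SVBP 3, POMK 4, TMTC1 5, PLAGL2 13, EI24 14 and TAX1BP3 139, counted from the highest. By gain over TIAR the places were POMK 1, PLAGL2 3, TAX1BP3 4, EI24 5, TMTC1 7, LRRC8B 34 and SVBP 108. Without both arrays POMK (place 2 and place 1 in the 2 orders), LRRC8B (4 and 24) and PLAGL2 (6 and 3) stayed near the top of at least 1 order. TMTC1 then stood in places 14 and 13, EI24 in 31 and 15, TAX1BP3 in 502 and 30, and SVBP in 241 and 562. SVBP and LRRC8B had the smallest arsenite differences in the TIAR RIP. Both gains use the same G3BP1 arrays and are given side by side for that reason.

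Enrichment in the TIAR RIP was tested by comparing it with input over both treatments, which uses no G3BP1 array. With 3 arrays in every group this comparison is orthogonal to the gains that chose the mRNAs, but only where all groups have the same spread. For all but TAX1BP3 the input arrays varied more after arsenite than in control cells (for LRRC8B an SD of 0.66 against 0.07). A low arsenite input array then raises both a gain and the TIAR difference, so the test is not fully free of the choice. It also shares input and TIAR arrays and the residual spread with the gains. By limma, with p-values adjusted over all 22011 clusters, 5 of the 7 mRNAs were higher in the TIAR RIP than in input and 2 were lower, where 22.2% of all clusters were called higher and 30.0% lower. That balance depends on the scaling, since higher calls made up 42.5% of all calls as deposited, 55.4% after median centring and 54.2% after quantile normalization, while the 7 calls kept their signs. LRRC8B was higher by 1.91 ± 0.17 (SE, adjusted p = 1.28e-07), or 3.75-fold, and PLAGL2 by 1.41 ± 0.12 (adjusted p = 8.32e-08). TMTC1 was higher by 0.97 ± 0.16 (adjusted p = 0.00011), EI24 by 0.94 ± 0.17 (adjusted p = 0.000183) and POMK by 0.89 ± 0.12 (adjusted p = 8.28e-06). Each of these 5 differences was smaller without both arrays that stood apart: 1.72 (LRRC8B), 1.35 (PLAGL2), 0.85 (TMTC1), 0.85 (EI24) and 0.79 (POMK).

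SVBP and TAX1BP3 had the opposite sign. SVBP was lower in the TIAR RIP than in input, with a difference of -1.82 ± 0.29 (adjusted p = 7.19e-05) or 3.52-fold. Its 6 TIAR RIP arrays (7.31 to 7.80) lay below 5 of the 6 input arrays, and the first arsenite input array (7.73) fell among them. TAX1BP3 differed by -0.68 ± 0.22 (adjusted p = 0.0155). Without both arrays that stood apart the differences were -2.10 for SVBP and -0.69 for TAX1BP3, but with unequal input groups the comparison is no longer orthogonal to the gains, so these values are a description. The set was thus not uniform in its relation to the TIAR RIP: 5 of its mRNAs were higher in that pulldown than in input and 2 lower.

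Set against the TIAR RIP directly, the control G3BP1 RIP lay below it on every array for 6 of the 7 mRNAs (22.3% of all clusters), with differences of -1.31 (TAX1BP3) to -3.33 (EI24). SVBP was the exception, with a G3BP1 signal 0.88 above that of TIAR and overlapping arrays. Without the third control G3BP1 array the difference was -0.76 for TAX1BP3 and 1.38 for SVBP, and -2.95 for EI24. After arsenite SVBP (2.12) and TAX1BP3 (0.50) lay above the TIAR RIP on every array (35.7% of clusters). LRRC8B (-1.29), TMTC1 (-0.22), PLAGL2 (-1.19) and EI24 (-1.57) lay below it on every array (22.4% of clusters), and the arrays of POMK (-0.18) overlapped.

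The order of the 6 group means fell into 2 kinds. For POMK, TMTC1, LRRC8B, PLAGL2 and EI24 the control TIAR RIP came first, the arsenite TIAR RIP next and the control G3BP1 RIP last. For POMK and TMTC1 the arsenite TIAR RIP overlapped the control input next to it in that order, and the arsenite input overlapped the control G3BP1 RIP; in TMTC1 control input overlapped the arsenite G3BP1 RIP as well. For LRRC8B, neighbours overlapped between both TIAR groups, between the arsenite G3BP1 RIP and control input, and between the arsenite input and the control G3BP1 RIP. SVBP and TAX1BP3 were highest in control input, and SVBP was lowest in the arsenite TIAR RIP. In SVBP the one pair of neighbours without overlap was the arsenite G3BP1 RIP and the arsenite input, and in TAX1BP3 the one pair with overlap was the arsenite TIAR RIP and the control G3BP1 RIP.

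Over the 18 arrays, each mRNA was set against the mean of the other 6. Pearson's r was 0.94 for POMK, 0.93 for TMTC1, 0.87 for PLAGL2 and for EI24, and 0.75 for LRRC8B. It was 0.58 for TAX1BP3 and -0.19 for SVBP. These arrays share groups, RNA samples and the choice of the mRNAs, so the coefficients describe the pattern, in which SVBP did not follow the rest.

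The genes whose profile over the 18 arrays was most like the mean of the 7 were FBXO27, SLC25A44, OGFRL1, CSGALNACT2 and ZDHHC3, with r between 0.970 and 0.972, and between 0.937 and 0.952 over the 16 remaining arrays. FBXO27 is a substrate receptor of ubiquitin ligases that recognises glycoproteins, SLC25A44 carries branched-chain amino acids into mitochondria, CSGALNACT2 starts chondroitin sulfate chains and ZDHHC3 attaches palmitate to proteins. Their gains over input were 1.33, 1.25, 1.61, 1.67 and 1.63 in the order named first. They were picked for likeness to the same arrays, so these gains carry no test.

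Start sites from RefSeq's promoter table (GRCh38.p14) are shown for 6 of the 7 genes. POMK was left out of this search and is named only, so its start was not examined. The 30 bases around each annotated start are shown because stress and growth signals are known to act on mRNAs that begin with a terminal oligopyrimidine tract, which would be visible at this place. Each line gives the 15 bases before the start and the 15 from it on the strand of the gene, 5′ to 3′, with the first 5 transcribed bases in capitals.
LRRC8B, chr1:89524814-89524843, plus strand: cgccgccgagcgcccATTGGccagcggaac
TMTC1, chr12:29784745-29784774, minus strand: ccaagtgatccagctAGATAgaaaaagtag
TMTC1, chr12:29783928-29783957, minus strand: ggcggggggactgctGTTTAtttgcagctg
SVBP, chr1:42817383-42817412, minus strand: ttccagccatcctctCTGCGcacgcgcggc
PLAGL2, chr20:32207729-32207758, minus strand: gctcgcgcggctcccACAATgcaccgcaca
EI24, chr11:125569462-125569491, plus strand: ggcccgggcatgcccAGTGCgggcgcagcg
TAX1BP3, chr17:3668564-3668593, minus strand: ggcgcgaccgcgggtACTCTgctgccggct

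None of these 7 starts began with a C followed by at least 4 bases that were all C or T, searched at the annotated start on the transcribed strand. Of the 16426 promoters of genes on the array, 4.4% did. The SVBP start came nearest, with a C and then a T before the first G. The 300-base windows of the same promoters (250 before the start) held 24 to 47 CG pairs, apart from the first TMTC1 start, which held 3. The median over promoters of genes on the array was 22, with quartiles of 8 and 32. GC content was 42.7% at that TMTC1 start and 59% to 78.3% at the others, against a median of 63%. These are descriptions of annotated starts, and the starts used in U251-MG cells were not measured.

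Genes that work with the 7 were described from lists fixed with earlier results of these data known. In O-mannosylation, the pathway of POMK and TMTC1, 17 of 22 listed genes were on the array. By limma, 9 of them rose and 1 fell with arsenite in the G3BP1 RIP, where 10.4% of all clusters rose and 4.08% fell. Over input 10 gained and 0 lost (14.3% and 2.65% of all clusters), and over TIAR 5 gained and 1 lost (8.55% and 5.05%). The median gain over input was 0.69, against 0.05 over all clusters. Without both arrays, 9 gained over input and 2 lost (13.1% and 9.79% of all clusters), with a median of 0.41. Under the 3 other scalings 8 gained, and 1 or 2 lost.

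Among the called genes of that list, DPM2, a regulatory subunit of the enzyme that makes the mannose donor, gained 1.08 ± 0.11 over input (adjusted p = 3.04e-05). POMGNT2, which adds the next sugar to the mannose that POMK later phosphorylates, gained 1.25 ± 0.19 (adjusted p = 0.000489). POMT2, a subunit of the transferase that attaches the mannose, gained 0.69 ± 0.11 (adjusted p = 0.000652), and POMGNT1 gained 1.01 ± 0.21 (adjusted p = 0.00361). TMTC2, a relative of TMTC1, gained 1.14 ± 0.30 over TIAR (adjusted p = 0.0204). The TMTC2 change in the G3BP1 RIP, 0.43, was not called, and that in the TIAR RIP, -0.71, was called lower. GMPPB, which makes GDP-mannose, moved the other way, with a difference of -0.89 ± 0.18 from the TIAR RIP's change (adjusted p = 0.00383). All of these calls held without both arrays.

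The other subunits of the LRRC8 channel were all on the array, and 3 of the 4 (LRRC8A, LRRC8C and LRRC8E) rose with arsenite in the G3BP1 RIP (10.4% of all clusters). A different 3 (LRRC8A, LRRC8C and LRRC8D) gained over input, with 0 losses (14.3% and 2.65% of all clusters). LRRC8A, the subunit that every such channel needs, gained 1.00 ± 0.09 over input (adjusted p = 1.52e-05) and 0.70 ± 0.09 over TIAR (adjusted p = 0.00024). LRRC8C gained 0.84 ± 0.16 (adjusted p = 0.00256) and LRRC8D 0.74 ± 0.16 (adjusted p = 0.00488) over input. LRRC8E rose in the G3BP1 RIP by 0.43 ± 0.12 (adjusted p = 0.0243; 0.0589 with median centring and 0.0532 with quantile normalization), and its gain over input of 0.06 ± 0.17 was not called (adjusted p = 0.846). For LRRC8D the difference in the G3BP1 RIP, 0.30 ± 0.11, was not called (adjusted p = 0.0928). Under median centring, quantile normalization and cyclic loess the count that rose in the G3BP1 RIP was 2, 3 and 4, and 3 gained over input each time.

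In the tubulin tyrosination list, which holds the enzymes that remove, restore or extend the tail residues of tubulin, 14 of 16 genes were on the array. With arsenite 1 of the 14 rose in the G3BP1 RIP (10.4% of all clusters), 4 gained over input (14.3%) and 2 over TIAR (8.55%), with 0 losses. The median gain over input was 0.50 (0.20 without both arrays). AGBL5, a carboxypeptidase that trims glutamates from tubulin, gained 1.44 ± 0.19 over input (adjusted p = 0.000169). TTL, the ligase that puts the tyrosine back, gained 0.96 ± 0.22 (adjusted p = 0.00763), TTLL5 1.05 ± 0.18 (adjusted p = 0.00123) and TTLL12 0.59 ± 0.16 (adjusted p = 0.0164). With quantile normalization the TTLL12 call was lost (adjusted p = 0.0797). In the G3BP1 RIP itself the changes of TTL (0.21), TTLL5 (0.29) and TTLL12 (-0.04) were not called, while AGBL5 rose by 0.74. In input TTL (-0.75), TTLL5 (-0.76), TTLL12 (-0.63) and AGBL5 (-0.70) were called lower.

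The vasohibins VASH1 and VASH2 are named because SVBP binds them, not by the rule for naming genes. Their gains over input were 0.04 ± 0.16 and 0.03 ± 0.13 and neither was called (adjusted p = 0.891 and 0.894). No gain was thus called for the catalytic partners of SVBP.

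In early autophagy, where EI24 takes part, 25 of 34 listed genes were on the array. In the G3BP1 RIP 2 rose and 0 fell with arsenite (10.4% and 4.08% of all clusters). Without both arrays 2 rose and 8 fell (11.1% and 13.7% of all clusters). Over input 6 gained and 0 lost (14.3% and 2.65% of all clusters), with a median of 0.39. Without both arrays 5 gained and 2 lost (13.1% and 9.79%), with a median of 0.23. Over TIAR 4 gained and 1 lost (8.55% and 5.05%), and without both arrays 5 gained and 6 lost (11.3% and 13.4%). The count that fell in the G3BP1 RIP was also 3 under each of the 3 other scalings, so the absence of falling genes rests on the 2 arrays and on the scaling.

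ULK2, one of the kinases that start autophagy, gained 1.52 ± 0.24 over input (adjusted p = 0.000667) and 1.43 ± 0.24 over TIAR (adjusted p = 0.00116). ATG9A, a membrane protein of the vesicles that seed autophagosomes, gained 0.92 ± 0.12 over input (adjusted p = 0.000142). WDR45B, which binds the lipid PI3P on forming autophagosomes, gained 0.75 ± 0.13 (adjusted p = 0.00122), and ATG13, a partner of the ULK kinases, 0.80 ± 0.17 (adjusted p = 0.00552). In the G3BP1 RIP itself the changes of ULK2 (0.31), WDR45B (0.15) and ATG13 (-0.04) were not called, while ATG9A rose by 0.53. In input ULK2 (-1.21), WDR45B (-0.60), ATG13 (-0.84) and ATG9A (-0.39) were called lower. ATG3, the enzyme that helps join LC3 to lipid, differed by -1.06 ± 0.24 from the change in the TIAR RIP (adjusted p = 0.00834).

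PLAG1, the one relative of PLAGL2 on the array (of 2 listed), was not called over input (0.54 ± 0.24, adjusted p = 0.159) and gained 1.16 ± 0.24 over TIAR (adjusted p = 0.00517). The PLAG1 change in the G3BP1 RIP, 0.42, was not called, and that in the TIAR RIP, -0.74, was called lower. Of the 5 listed partners of TAX1BP3, 4 were on the array and 1 was called. CTNNB1, which encodes beta-catenin, differed by -0.66 ± 0.16 from the change in input (adjusted p = 0.0121) and by -0.55 ± 0.16 from that in the TIAR RIP (adjusted p = 0.0381), a sign opposite to that of TAX1BP3. RTKN, KCNJ4 and ARHGEF16 had gains over input of 0.02, 0.07 and -0.12 that were not called.

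**Figure D4:**
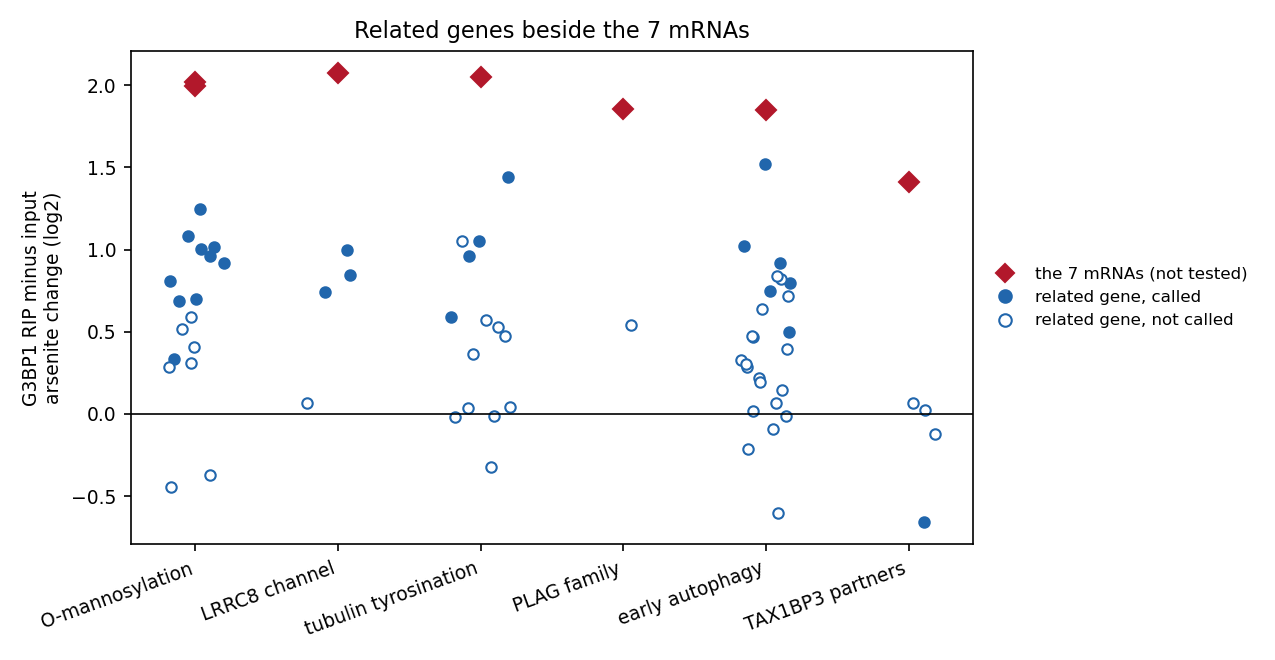
Gain over input, the arsenite change of the G3BP1 RIP minus that of input on the log2 scale (vertical axis), of the 7 mRNAs (diamonds, not tested) and of the related genes in the 6 lists (circles, filled where limma called them at an adjusted p under 0.05), each as the estimate from 18 arrays. The 7 mRNAs, chosen for a high gain, lie at 1.41 to 2.07, and ULK2 (1.52) and AGBL5 (1.44) are the highest of the related genes; without the 2 arrays that stood apart AGBL5 (1.16) lies above SVBP (0.99).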

How the data were processed

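The 18 arrays (Affymetrix exon arrays) measured input RNA, TIAR RIP RNA and G3BP1 RIP RNA from U251-MG cells with and without arsenite, 3 biological replicates per group as the labels give them. The deposited values were log2 signals per transcript cluster, made by the authors with Affymetrix Expression Console and RMA, per the submitters' processing notes; their versions and the annotation build were not given in the sources used here. The deposited arrays were not fully equal in level. Array medians ran from 7.73 (first arsenite input array) to 8.07 (first arsenite G3BP1 RIP array). Upper quartiles ran from 9.17 (first arsenite input array) to 9.94 (first control G3BP1 RIP array), with 9.45 for the third control G3BP1 RIP array. Such array-wide differences enter the comparisons, and their source was not tested. A shift of all RNA in a pulldown cannot be read from these values. Gene symbols came from the platform table, where 14432 clusters had 1 symbol, 2408 several and 5171 none; RefSeq changed 0 of the single symbols. The brightest cluster by mean over 18 arrays stood for a gene.

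Group means were fitted with limma 3.58.1 (R 4.3.3) over all 22011 clusters and 6 groups (12 residual degrees of freedom), with Benjamini-Hochberg adjustment and calls under 0.05. The fit was tested on simulated data with the same spread in all groups and no arrays that stood apart. That test does not cover the unequal spread and the outlying arrays of these data. The number of arrays limits the precision. The 7 mRNAs and the gene lists were chosen with earlier results of these data known. Named genes were the 7, up to 4 called genes per list and gain with the smallest p, the 5 most similar profiles and the antibody targets; exceptions are stated. Replicate numbers were checked for pairing between groups. The correlation of deviations from group means ran from -0.29 to 0.24 over 15 pairs of same-numbered arrays and passed 0.1 in 3, so no block was used. Pairs of a TIAR array with an input or G3BP1 array were not checked. Alternatives were other scalings, filters, weights and fits, and leaving out arrays.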

Additional observations from a re-analysis of the deposited data

Results flagged for a closer look

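For 10 values of the 7 mRNAs, all arsenite arrays of the G3BP1 RIP lay above its control arrays while all arsenite arrays of the other kind of RNA lay below theirs; these differences were not tested, since they chose the mRNAs. Against input this held for LRRC8B (2.07), SVBP (2.05), POMK (2.02), TMTC1 (1.99), PLAGL2 (1.86) and EI24 (1.85), all as differences of log2 changes. Against the TIAR RIP it held for POMK (2.04), PLAGL2 (1.82), EI24 (1.76) and TMTC1 (1.73).

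For 31 values of other genes, the limma test of the difference between the arsenite changes passed an adjusted p of 0.05. The values are the signed change in the G3BP1 RIP minus that in the other kind of RNA. Against input the O-mannosylation genes POMGNT2 (1.25), DPM2 (1.08), POMGNT1 (1.01) and POMT2 (0.69) had a positive difference. So did the channel subunits LRRC8A (1.00), LRRC8C (0.84) and LRRC8D (0.74), and the tubulin enzymes AGBL5 (1.44), TTLL5 (1.05), TTL (0.96) and TTLL12 (0.59). The autophagy genes ULK2 (1.52), ATG9A (0.92), ATG13 (0.80) and WDR45B (0.75) did too, while CTNNB1 (-0.66) had the opposite sign. A positive difference need not be a rise in the G3BP1 RIP, where TTLL12 and ATG13 each changed by -0.04.

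Against the TIAR RIP, ULK2 (1.43), PLAG1 (1.16), TMTC2 (1.14), AGBL5 (0.98), TTL (0.90), DPM2 (0.78), WDR45B (0.77), POMGNT1 (0.76), LRRC8A (0.70) and ATG9A (0.51) had a positive difference. ATG3 (-1.06), GMPPB (-0.89) and CTNNB1 (-0.55) had a negative one. The ATG9A call was lost with quantile normalization (adjusted p = 0.0547) and cyclic loess (adjusted p = 0.0543).

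The mRNA of G3BP1 itself, the target of the antibody, differed by -0.77 from its change in input (adjusted p = 0.00791) and by -0.73 from its change in the TIAR RIP (adjusted p = 0.0128). TIAL1, which encodes TIAR, was not called in either (adjusted p = 0.572 and 0.858).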

How the results depend on the processing

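Each of the 7 mRNAs kept its sign in all 28 alternatives and 4 comparisons, and its TIAR call in all 28. The mRNAs were chosen for a higher G3BP1 signal with and without both arrays, so those signs were largely fixed in advance. Filters, some other fits and leaving out arrays of groups outside a comparison also cannot change an estimate. Leaving out an input or TIAR array, or weighting arrays, ends the orthogonality to the gains, which in any case needs an equal spread in all groups. The highest adjusted p for TIAR against input was 0.0351 (limma, TAX1BP3, without the first arsenite TIAR array). Of 196 member values per comparison, 11 moved beyond the spread between replicates for the change in the G3BP1 RIP. The counts were 25 for the gain over input and 13 for the gain over TIAR. TIAR against input was checked for sign and call alone and has no such count. Called clusters for the G3BP1 RIP change numbered 3189, and 866 with a fit of its own 2 groups, 6489 with array weights and 5464 when both arrays that stood apart were left out. The median over the 7 mRNAs was 1.07, then 0.75 with weights and 0.70 without both. For the gain over input, 3721 clusters became 5960 with weights, and the median of 1.99 became 1.48 with weights and 1.42 without both. For the gain over TIAR, 2994 clusters became 6349 with weights and 5447 without both, and the median of 1.76 became 1.35 and 1.38. Weights and the smaller fits change the estimated spread; the cause was not tested. Leaving out 1 array at a time gave 2133 to 3940 clusters and medians of 0.70 to 1.27 for the G3BP1 change, 2802 to 4033 and 1.64 to 2.13 for the gain over input, 2244 to 4035 and 1.38 to 1.98 for the gain over TIAR, and 10775 to 12438 (of 11496) for TIAR against input; the lowest median came each time without the third control G3BP1 array. Higher calls made up 71.8% for the G3BP1 change, and 58.3%, 55.5% and 58.7% under median centring, quantile normalization and cyclic loess, 47.8% with weights and 44.8% without both arrays. For the gain over input 84.3% became 65.9%, 61.2%, 63.1%, 60.4% and 57.3%, for the gain over TIAR 62.9% became 57.5%, 54.4%, 50.3%, 47.1% and 45.8%, and for TIAR against input 42.5% became 55.4%, 54.2% and 48.2% under the scalings. Median centring moved the median of all clusters from 0.05 to -0.11 for the gain over input and from -0.07 to 0.05 for TIAR against input. With the replicate number as a block, 2888, 3389, 2660 and 11262 clusters were called in these 4 comparisons. Each mRNA has 1 cluster, so the alternative of its other clusters was not run. With 3 arrays per group and no depth in array signals, small changes may be missed.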

Other observations

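In input RNA, none of the 14 tubulin tyrosination genes rose with arsenite and 6 fell by the limma test (2.52% and 11.2% of all clusters). The median change was -0.38 against -0.03 over all clusters. Without both arrays that stood apart, 6 fell as well and the median was -0.21. In the early autophagy list 8 of 25 fell and 0 rose in input (10 and 1 without both arrays), with a median of -0.32, where over all clusters 11.2% fell and 2.52% rose (13.4% and 7.07% without both arrays). In the TIAR RIP 5 of the 25 fell and 2 rose, where over all clusters 5.71% fell and 6.15% rose. Without both arrays 10 fell and 2 rose, although no TIAR array was left out and only the estimated spread changed. The share over all clusters was not counted for that fit.

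Against input over both treatments, the TIAR RIP held 6 of the 14 tubulin tyrosination genes at a higher signal and 1 at a lower one. In the O-mannosylation list 5 of 17 were higher and 9 lower. Over all clusters 22.2% were called higher and 30.0% lower, a balance that depends on the scaling. PLAG1 was higher by 1.81, the same sign as its relative PLAGL2. These are counts of limma calls, and lists were not compared with each other.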
